A study of Mus musculus with 3 samples.

Results

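Intronless protein-coding genes were taken as the autosomal genes of the GENCODE M39 mouse annotation in which every annotated transcript has 1 exon. This gave 1067 of 20621 autosomal protein-coding genes, and the other 19554 served as the spliced genes. The choice used the annotation alone and no crosslink. Contacts between Tra2β and RNA had been mapped by iCLIP in testes of adult wild type mice, with 3 biological replicates in 1 group and no input, IgG or knockout library. Tra2β is an SR-like protein known for activating exons from purine-rich RNA inside them. Minced testes were crosslinked with UV-C light, the RNA was partly digested with RNase, and Tra2β was pulled down with a polyclonal antibody. A crosslink below is 1 unique cDNA ending at 1 nucleotide, and CPM is crosslinks per 1000000 of a library. The question addressed was whether a splicing regulator also touched mRNAs that have no intron to splice, and where along them.

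Many intronless genes arose when a spliced mRNA was copied back into the genome, which leaves a gene without introns next to a spliced parent elsewhere. Several such retrogenes are active in meiotic and post-meiotic germ cells, where parents on the X chromosome are silenced. Other intronless genes belong to large families, such as the replication-dependent histones, olfactory receptors and interferons. Without an exon junction their mRNAs are made and exported independently of splicing, and a contact on such an mRNA cannot select a splice site of its own.

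The 30 nt with the most crosslinks in each of the 6 intronless genes with the highest mean CPM are shown here, because they are where Tra2β contact on these mRNAs was densest. They are written 5′ to 3′ along the mRNA, from GRCm39, and capitals mark GAA, the triplet at the core of the purine-rich sequence known to be bound by Tra2β. Those of Spz1, Prm3, Ccer1, Hmgb4 and Pnma8b lie in coding sequence (CDS). That of Papolb starts in the last bases of the CDS and lies mostly in the 3′ UTR.
Spz1, chr13:92712269-92712298, minus strand: agtagaGAAaagagggagggtacaGAAatt
Prm3, chr16:10608556-10608585, minus strand: gaggagGAAGAAGAAGAAgagGAAgaggag
Papolb, chr5:142513688-142513717, minus strand: tctaGAAgacagtctcagctgataaGAAga
Ccer1, chr10:97530457-97530486, plus strand: GAActttatGAActatgactacttaagcca
Hmgb4, chr4:128154327-128154356, minus strand: taccagcaaGAAatgatGAAttacataggc
Pnma8b, chr7:16679969-16679998, plus strand: GAAgatgatgacGAAgatGAAgatgacgat
The Prm3 window held 46, 5 and 88 crosslinks in replicates 1, 2 and 3. This was 39.6% of the crosslinks of the gene in 7.32% of its length. All 30 bases of that window are purines. The Hmgb4 window held 24, 1 and 27 crosslinks, 18.4% of the gene's in 4.02% of its length, and the Pnma8b window held 2, 15 and 11, 9.69% in 0.723% of its length. The windows of Spz1, Papolb and Ccer1 held 23, 23 and 19 crosslinks over the 3 libraries, between 6.25% and 6.85% of their gene's. The windows were chosen by their crosslinks, so these shares describe them and are no test. Their purine content ran from 50% in Ccer1 to 100% in Prm3.

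The libraries held 348033, 619571 and 488719 crosslinks in replicates 1, 2 and 3. Replicate 2 stood apart, with 0.0454 crosslinks per kb of intergenic sequence against 0.0153 and 0.0184 in replicates 1 and 3, and 16.3% of its crosslinks in exons of spliced genes against 31.1% and 42.2%. Main results below are therefore given per library or with and without replicate 2, and means over the 3 libraries include it. Spermatocyte markers held 50 (Hormad1) to 265 (Sycp1) crosslinks in total, and spermatid markers 34 (Spaca1) to 717 (Tnp2). Spermatogonial markers held 1 (Zbtb16) to 19 (Kit). Of these, all but Zbtb16 were crosslinked in all 3 libraries. Among Sertoli and Leydig cell markers the totals ran from 15 (Wt1 and Star) to 122 (Clu), which overlaps the ranges in spermatocytes and spermatids. RNA levels were not measured in these libraries, so a higher crosslink density and more RNA cannot be told apart between genes, and in whole testis neither can fewer cells of a type and less RNA per cell. Comparisons within a gene take its RNA level out only as far as the annotated CDS and UTRs are present together in testis RNA, which was not tested.

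Intronless genes held 2329, 1134 and 4846 crosslinks on their own strand in replicates 1, 2 and 3. These were 0.669% (95% Clopper-Pearson interval 0.642 to 0.697), 0.183% (0.173 to 0.194) and 0.992% (0.964 to 1.02) of the libraries. The intervals do not overlap, and the mean was 0.615% ± 0.407 (SD, n = 3). Over bases with no annotated gene on the other strand, sense crosslinks outnumbered antisense crosslinks 1273 to 23, 815 to 113 and 2544 to 34. The ratios were 55.3, 7.21 and 74.8, so contact lay on the mRNA strand in each library, by the smallest margin in replicate 2.

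Contact was spread unevenly, and most intronless genes had none. At least 1 crosslink was seen in 339 of the 1067 genes (31.8%), against 68.7% of spliced genes, and 728 had 0. In each of the 3 libraries a crosslink was present in 163 (15.3%), beside 40.4% of all autosomal coding genes. A gene was called bound when its exonic crosslinks exceeded the intergenic density of the library by a two-sided exact Poisson test with Benjamini-Hochberg adjusted p under 0.05 in all 3 libraries. This held for 113 intronless genes (10.6%), below the background of 27.1% of all autosomal coding genes. Taken singly, replicates 1, 2 and 3 called 169, 152 and 191, beside backgrounds of 36.4%, 35% and 41.4%. Against the intronic in place of the intergenic density, 64 were called, beside a background of 16%. Without replicate 2, 147 were called, a count given without a background over all autosomal coding genes. Of the 113 genes, 30 overlap another gene on the same strand. When the overlapping bases were left out, 85 of the 887 genes with bases remaining were called, beside a background of 26.5%.

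Length separated the sets, since the median exonic length was 1028 nt in intronless and 5085 nt in spliced genes. Under 1 kb, 12 of 505 intronless (2.38%) and 42 of 717 spliced genes (5.86%) were bound. Between 1 and 2 kb the order turned, with 46 of 290 intronless (15.9%) against 219 of 2053 spliced genes (10.7%). Between 2 and 4 kb it was 37 of 203 (18.2%) against 732 of 4726 (15.5%), and from 4 kb on 18 of 69 (26.1%) against 4484 of 12058 (37.2%). Thus at a given length intronless genes were not uniformly called less often, and the shares differed in direction between length classes.

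**Figure D1:**
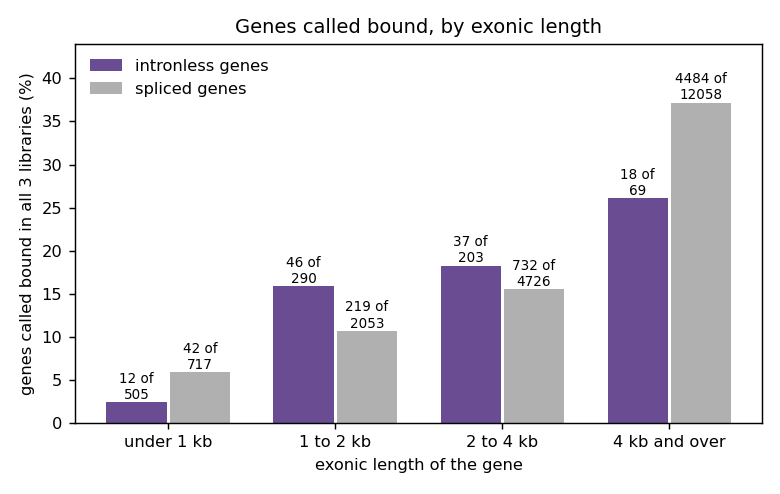
Share of genes called bound in all 3 libraries (vertical axis, percent) in 4 classes of exonic length, for intronless genes (purple) and spliced genes (grey), with the counts above each bar. Intronless genes stand below spliced genes under 1 kb (2.38% against 5.86%) and from 4 kb on (26.1% against 37.2%), and above them in the 1 to 2 kb class (15.9% against 10.7%).

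By family, contact was infrequent in receptor, keratin-associated protein, interferon and protocadherin genes. Of 136 intronless olfactory receptor genes 7 had a crosslink, 8 crosslinks in all, and 0 were bound. Of 135 vomeronasal, taste and trace amine receptor genes 2 had a crosslink, as did 3 of 110 keratin-associated protein genes, 2 of 17 interferon genes and 5 of 17 protocadherin genes, and 0 of these were bound. In these 5 families, 0 genes had a crosslink in all 3 libraries. Other G protein coupled receptor genes had a crosslink in 5 of 21 and 1 bound, the muscarinic receptor gene Chrm4, with 2, 7 and 3 crosslinks. The intronless transcription factor genes held 1 bound gene of 31, Jund, an AP-1 subunit, with 5, 8 and 6 crosslinks. Of 1067 genes, 232 had less than 50% of their bases inside 30-mers found once in the genome, and 1 of the 113 bound genes was among these. How reads that map to several places were treated is not given in the sources used here, so a low count in near-identical families is uncertain.

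Sperm and spermatid genes were at the other end, with a crosslink in 16 of 16 and 13 bound (81.25%), beside 27.1% of all autosomal coding genes bound. This family was listed by hand from gene symbols, many of them single testis genes, and leaves out others such as Prm3 and Fscb. Its share therefore describes the list and is no test. The family includes Actl7b, an actin-like protein of the sperm head (32, 2 and 74 crosslinks), Kif2b, a kinesin of the microtubule-depolymerising family (36, 3 and 108), and Pgk2, the glycolytic phosphoglycerate kinase of sperm (36, 5 and 52). All 3 were lowest in replicate 2. Actl11, another actin-like gene, had 18, 13 and 29, all 60 in the CDS. Gk2, a glycerol kinase, had 12, 0 and 24 and was not called, as the call needs an excess in each library. Its count of 0 in replicate 2 allows up to 4.84 CPM. Some families were too small to be set apart from the 27.1% of all autosomal coding genes. Kelch and BTB genes had 2 of 6 bound (Klhl9 and Kbtbd7) and zinc-finger genes 2 of 4 (Zfp830 and Zfp696). The heat shock family had 1 of 5, the DnaJ co-chaperone gene Dnajb3, with 46, 4 and 68 crosslinks. Genes in none of the families, 502 in number, held 82.5% of all crosslinks in intronless genes and 82 of the 113 bound genes.

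Histones package DNA and are partly exchanged for transition proteins and protamines in spermatids. Of 67 intronless histone genes, 34 had a crosslink and 11 were bound (16.4%), beside 27.1% of all autosomal coding genes bound. Linker histones of the H1 class had 5 of 10 bound and 275 of the 409 histone crosslinks. H1f1 had 13, 22 and 46 crosslinks, H1f7, a linker histone of spermatids, had 25, 10 and 39, and H1f6, the testis-specific H1t, had 9, 4 and 18. In CPM all 3 were lowest in replicate 2, though H1f1 by little (37.4 CPM in replicate 1 and 35.5 in replicate 2). H1f9, also of spermatids, had 11, 1 and 20 and missed the call. Core histones held less, with 3 of 20 H2A, 2 of 13 H2B, 1 of 12 H3 and 0 of 12 H4 genes bound. The share of unique bases was 97.7% in H1 but 52.5% to 75.3% in the core histone classes, and its part in these counts was not tested.

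A few genes carried much of the contact. The 10 genes with the most crosslinks held 35.0% of all 8309 crosslinks in intronless genes, and the first 50 held 76.2%. The 15 highest by mean CPM with crosslinks in all libraries began with Spz1, a bHLH-zip transcription factor of the testis (ENSMUSG00000046957.6, chr13:92711144-92712680). It had 91, 16 and 261 crosslinks, or 261, 25.8 and 534 CPM in replicates 1, 2 and 3. Prm3, which lies in the protamine cluster (ENSMUSG00000050058.7, chr16:10608369-10608778), had 128, 13 and 210 crosslinks, or 368, 21.0 and 430 CPM. Both were far lower in replicate 2 than in the other libraries. Papolb, a poly(A) polymerase of germ cells, had 72, 15 and 249 crosslinks. Ccer1, a coiled-coil glutamate-rich protein gene, had 88, 20 and 187. Hmgb4, an HMG-box protein of the germ line, had 106, 11 and 165. These genes repeat the same order, replicate 3 over replicate 1 over replicate 2.

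Pnma8b, of the paraneoplastic Ma family, departed from that order with 75, 121 and 93 crosslinks, or 215, 195 and 190 CPM, and a mean of 200.4 ± 13.3 (SD, n = 3). Haspin, the kinase of histone H3, had 60, 6 and 197, and Ccdc96, a coiled-coil protein gene, 64, 57 and 135. Eid3, of the SMC5/6 complex, had 61, 12 and 155, and Taf7l2, a gene of the TAF7 family of transcription initiation factors, had 61, 16 and 148. Again replicate 2 was the lowest in each. Adam1b, a fertilin subunit, had 62, 4 and 142, with 68.6% of its bases unique. The poly(A)-binding protein gene Pabpc6 had 45, 20 and 107. The genes 4930571K23Rik and ENSMUSG00000144274 had 44, 5 and 131 and 37, 5 and 119, and Kif2b, given above, completes the 15. Of these 15 genes, 14 were lowest in replicate 2 and highest in replicate 3, Pnma8b being the exception to both. Antisense crosslinks over the 15 genes numbered 9, of which 7 were in Pnma8b, counted only over bases with no annotated gene on the other strand. Sense crosslinks numbered 3761 over all exonic bases, so these counts cover unlike sequence and give no strand ratio. Papolb lies within Radil and Eid3 within Txnrd1 on the same strand, so crosslinks to those longer transcripts cannot be told apart there. Fscb, a fibrous sheath protein gene outside the rule for the 15 because of its replicate 2 value, had 71, 0 and 165.

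**Figure D2:**
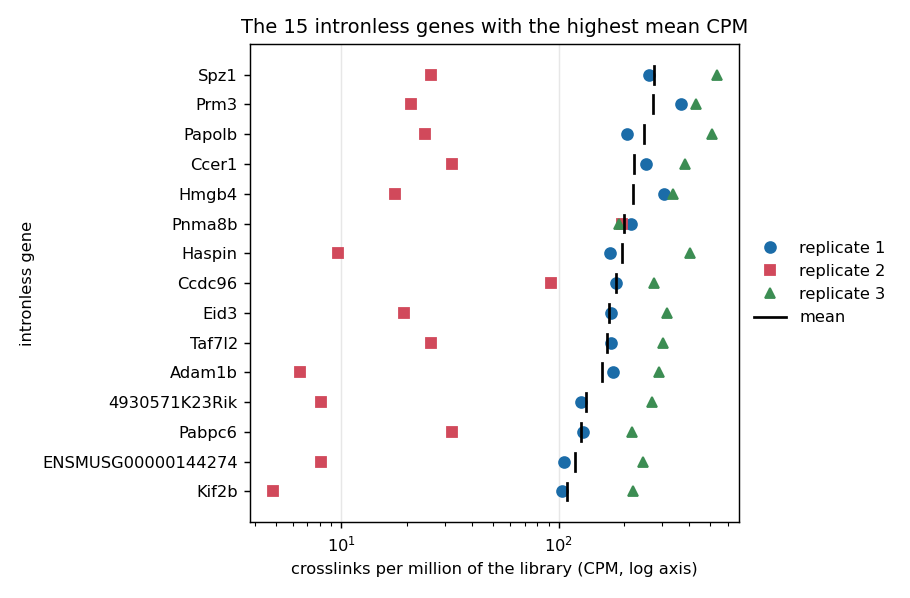
CPM in each library (log axis; circles, squares and triangles for replicates 1, 2 and 3, vertical ticks for the mean) of the 15 intronless genes with the highest mean CPM among those crosslinked in all 3 libraries. Replicate 2 lies far to the left except in Ccdc96 (92.0 CPM) and Pnma8b, whose 3 values, between 190 and 215 CPM, nearly coincide.

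The low replicate 2 values were not restricted to the highest genes. Among the 75 intronless genes with at least 20 crosslinks over the libraries, 69 had their lowest CPM in replicate 2, and the median log2 ratio of replicate 2 to the mean of the others was -2.30. Over 4205 spliced genes with as many crosslinks it was -0.998, with 73.6% lowest and 10.5% highest in replicate 2. Of the other 6, 2 had their highest CPM in replicate 2. These were Hnrnpa0, an hnRNP A/B family gene, with 1, 20 and 6 crosslinks, and Gm14137 with 5, 10 and 6. Galnt4, Klhl9, Gm10643 and Pnma8b had replicate 2 between the other libraries. Spearman's rho over the 75 genes was 0.89 between replicates 1 and 3 but 0.26 and 0.16 for replicate 2 with each, a description over genes that share libraries. The order of these genes was thus shared far more between replicates 1 and 3 than with replicate 2.

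Per kb of exon, intronless genes had 3.95, 1.08 and 5.85 CPM, a mean of 3.63 ± 2.40 (SD, n = 3), pooled over all 1067. Prm3 led with 665 CPM per kb as the mean of the libraries, then Hmgb4 (295), Spz1 (178), Eid3 (131) and Ccer1 (119). ENSMUSG00000144274 (102), Dnajb3 (88.1), H1f1 (75.1), Haspin (69.4) and 4930571K23Rik (65.4) completed the first 10. Prm3 was second only to Tnp2 among the 4280 autosomal coding genes with at least 20 crosslinks, while Hmgb4 ranked 6 and Spz1 13. Intronless genes were 1.75% of these 4280 and 14 of the 100 with the highest density, though with density in the CDS alone they were 6 of 100. Ranked over replicates 1 and 3 alone they were 15 of 100. By CPM without regard to length they were 0 of the first 100 and 15 of the first 500. The SD over libraries was close to the mean in the first of these genes (Prm3 537, Hmgb4 236, Spz1 165), with replicate 2 the lowest in each. Among Prm3, Hmgb4 and Spz1 the order held within each library, but other genes moved between them. In replicate 2, H1f1 (47.9 CPM per kb) and Pnma8b (47.1) lay above Hmgb4, and Ccer1 lay above Spz1. Prm3 had 897, 51.2 and 1048 CPM per kb, Hmgb4 408, 23.8 and 453, and Spz1 170, 16.8 and 347. Eid3 and Ccer1 changed order, with 134, 14.8 and 243 against 136, 17.3 and 205.

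The comparison with exons of spliced genes depended on which exonic sequence was taken. Against all exons of spliced genes, the pooled log2 density ratio was 0.60, -0.34 and 0.72 in replicates 1, 2 and 3. The mean was 0.32 ± 0.58 (SD, n = 3), within the spread of the libraries, and 0.66 without replicate 2. Against last exons, intronless genes were denser in 3 of 3 libraries (1.23 ± 0.56). Against internal exons, which are mostly CDS, they were less dense in 3 of 3 (-0.67 ± 0.56). With CDS set against CDS the ratio was -0.23, -1.18 and -0.18, a mean of -0.53 ± 0.56, negative in 3 of 3. Leaving out the chemoreceptor genes, an alternative chosen after seeing the data, brought the CDS ratio to 0.16, -0.79 and 0.20. Among genes crosslinked in all 3 libraries, also chosen after seeing the data, it was 1.02, 0.11 and 1.08, a mean of 0.74 ± 0.54. That selection uses the crosslinks themselves and keeps short genes only at high density, so it raises the ratio for intronless genes and is a description. Without the 5 intronless genes with the most crosslinks the ratio to all exons was 0.03. No test of these ratios is given, as flipping signs over 3 libraries gives a two-sided p of 0.25 at the lowest.

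**Figure D3:**
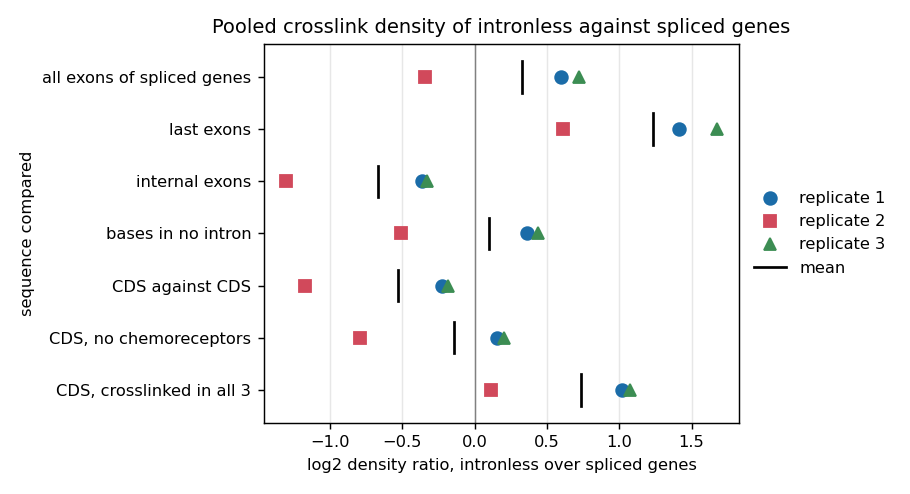
Log2 ratio of pooled crosslink density, intronless over spliced genes (horizontal axis), for 7 choices of the sequence compared; circles, squares and triangles are replicates 1, 2 and 3 and black ticks their mean, with the grey line at equal density. The sign turns with the choice, from 1.23 against last exons to -0.67 against internal exons, and replicate 2 is the lowest in every row.

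Gene by gene, the 75 intronless genes with at least 20 crosslinks had a median of 19.2 CPM per kb (mean of the libraries), against 4.63 for 4205 spliced genes. By library the medians were 20.6, 4.50 and 28.9 in intronless and 4.76, 2.68 and 5.78 in spliced genes. Over replicates 1 and 3 alone the medians for the same genes were 24.5 and 5.33. Among genes of 1 to 2 kb the medians were 20.4 (32 genes) and 19.4 (133 genes), and of 2 to 4 kb 19.3 (24 genes) and 9.79 (522 genes). Over replicates 1 and 3 alone these were 28.8 and 24.5, and 26.2 and 11.8. In replicate 2 alone intronless genes had the lower median in both length classes, 5.02 against 6.55 and 3.72 against 5.09. In the CDS alone they were 24.0 and 25.8 for 1 to 2 kb, and 23.7 and 15.8 for 2 to 4 kb. The minimum of 20 crosslinks selects short genes by high density, which makes these values a description. The unselected median over all genes was 0 for intronless genes and 0.395 for spliced genes.

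Within the mRNA, contact was densest in the CDS. Over the 701 intronless genes with an annotated CDS and 3′ UTR, the CDS had 6.96, 1.86 and 10.4 CPM per kb, the 3′ UTR 2.64, 0.690 and 3.62. The log2 ratio of CDS to 3′ UTR was 1.40, 1.43 and 1.53, a mean of 1.45 ± 0.07 (SD, n = 3), above 0 in 3 of 3 libraries. Replicate 2 lay between the others in this pooled ratio. The 5′ UTR, measured in 675 genes, had 2.82, 0.973 and 5.02 CPM per kb, and the CDS exceeded it by a log2 ratio of 1.102 ± 0.17. Shares were taken over all 1067 intronless genes, 351 of them without an annotated UTR, and so cover more genes than the ratios above. There the CDS held 70.9% ± 0.507 of the crosslinks and 57.2% of the length, and the 3′ UTR 21.7% ± 0.844 and 33.8%.

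The same ratio was larger in spliced genes. There the log2 ratio of CDS to 3′ UTR was 2.17, 2.31 and 2.44, a mean of 2.30 ± 0.13, and intronless genes were lower by 0.77, 0.88 and 0.91 in replicates 1, 2 and 3. The difference of -0.85 ± 0.08 (SD, n = 3) was larger than the spread between libraries. Genes with at least 20 crosslinks alone gave 1.32 ± 0.05 against 2.39 ± 0.12, a difference of -1.07 ± 0.07. When the share expected from each gene's own lengths and crosslinks was used, the ratio in intronless genes was 0.36, 1.05 and 0.42 in replicates 1, 2 and 3, with replicate 2 apart from the others. The means were 0.61 ± 0.38 and 1.63 ± 0.12 in intronless and spliced genes, and the difference was -1.02 ± 0.33. Both of these were chosen after seeing the data, and the difference was negative in 3 of 3 libraries in each. Annotated 3′ UTRs differed between the sets, with a median of 417 nt in intronless and 2003 nt in spliced genes, and their part in the difference was not tested.

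**Figure D4:**
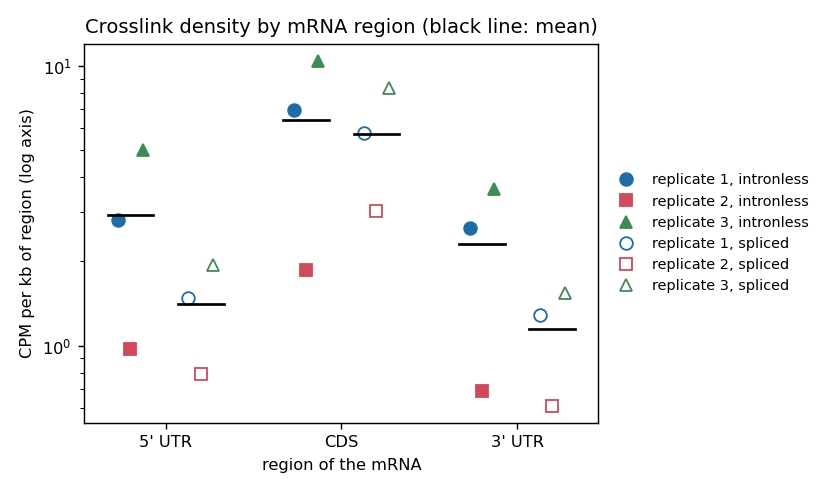
Crosslink density (CPM per kb of region, log axis) in the 5′ UTR, CDS and 3′ UTR for intronless genes (filled symbols) and spliced genes (open symbols); each symbol is a library and black lines are means. In both sets the CDS is highest, but the 3′ UTR mean is 2.31 CPM per kb in intronless and 1.15 in spliced genes.

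Per gene, CDS and UTR crosslinks were set against their lengths by a two-sided exact binomial test in each library, adjusted over all genes and libraries. Of 74 intronless genes tested, 2 were called toward the CDS in all 3 libraries and 0 toward the UTRs, beside backgrounds of 21% and 0% of the 4260 genes tested. Ccdc96 had 55, 55 and 108 crosslinks in the CDS against 9, 2 and 27 in the UTRs, which are of about equal length (49.0% of the gene is CDS). Its log2 ratio was 3.06 ± 1.31 and its highest exact adjusted p 1.02e-08. Taf7l2 had 44, 15 and 91 in the CDS of 61, 16 and 148 in all, with a log2 ratio of 2.16 ± 1.40 and a highest adjusted p of 2.09e-04. Both calls rest on genes with more than 10 crosslinks in replicate 2. The tested intronless genes had a median of 5.5 crosslinks in replicate 2 against 13 in spliced genes, beside 14 and 12 in replicate 1, and they had a median of 403 nt of 3′ UTR against 3100.5 nt.

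Without replicate 2, 8 of 58 intronless genes were called, 7 toward the CDS beside a background of 39.1% and 1 toward the UTRs beside 0.0926%. The 7 were Ccdc96, Taf7l2, Prm3, Hmgb4, Papolb, ENSMUSG00000144274 and Ddi1, a retroviral-protease-like gene with 93.6% of its 78 crosslinks in a CDS that makes up 17.2% of its length. Adam1b was called toward the UTRs, with 52.0% of its crosslinks in replicates 1 and 3 in a CDS that makes up 72.5% of its length. Some bound genes had most of their crosslinks in the 3′ UTR, and none of those named next passed the test. Pigm, a mannosyltransferase gene of GPI anchor synthesis, had 5, 6 and 10 of 23 crosslinks in a 3′ UTR of 6129 nt. Purb, a purine-rich element binding protein gene, had 10, 11 and 11 of 37 in one of 7313 nt, and Hdgfl1 had 10, 4 and 10 of 31 in one of 1064 nt. The CDS of Purb held 13.5% of its crosslinks in 11.7% of its length, so its crosslinks were not shifted from the CDS to the 3′ UTR. In Pigm the CDS held 4.35% of the crosslinks in 16.8% of the length, and in Hdgfl1 22.6% in 42.7%. Fundc2b had all 26 in its 3′ UTR, but 39.7% of its bases are unique. These genes, and Gm14137 with 20 of 21 in the 3′ UTR, were selected after their values were seen.

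Along the gene from the 5′ to the 3′ end, the 113 bound genes had on average the fewest crosslinks in the first and last of 10 equal parts of their length, 6.96% ± 0.896 and 6.82% ± 2.36 (SD, n = 3), and the most in part 6, 12.9% ± 0.463. The other parts held between 9.21% and 12.3%. This order differed between libraries, and in replicate 2 part 4 held the most (14.5%). Crosslinks fell on 7187 distinct positions, of which 6439 were seen in a single cDNA. At least 2 libraries shared 388 positions, and 18 positions in 9 genes were found in all 3, among them 10608582 of chromosome 16 in the Prm3 window shown above (3, 1 and 7) and 128154336 of chromosome 4 in that of Hmgb4 (3, 1 and 6). Depth at single nucleotides was too low for comparison.

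GAA was somewhat more frequent near crosslinks than elsewhere in the same exons. A GAA started within 30 nt of 81.7%, 78.4% and 81.0% of crosslinks in intronless genes, against 75.4%, 69.9% and 76.7% of the nucleotides of the same exons weighted by their crosslinks. The ratio was 1.09 ± 0.033 (SD, n = 3), above 1 in 3 of 3 libraries, and 1.07 ± 0.039 in spliced genes. Within 10 nt it was 1.25 ± 0.092 and 1.16 ± 0.089. For AGAA within 30 nt, which contains GAA, the ratio was 1.25 ± 0.050 against 1.18 ± 0.084, and intronless genes were higher in 3 of 3 libraries by 0.0695 ± 0.0343. The difference for GAA within 30 nt was 0.0157 ± 0.0152, and for pentamers of purines alone 0.00659 ± 0.00938, the latter below 0 in replicate 3.

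By position, GAA was on average most frequent from the crosslinked base to 9 nt downstream, though in replicate 2 it was more frequent from 10 to 19 nt in both sets of genes. In the first of these bins it was 1.56, 1.82 and 1.42 times as frequent as over the same exons in intronless genes, and 1.25, 1.52 and 1.21 times in spliced genes. From 10 to 19 nt the values were 1.36, 1.91 and 1.26 in intronless genes and 1.20, 1.61 and 1.15 in spliced genes. With crosslinks and background both kept to the CDS, the values from 0 to 9 nt were 1.60, 1.69 and 1.40 against 1.17, 1.37 and 1.13, a difference of 0.334 ± 0.0805 (SD, n = 3). From 10 to 19 nt the difference in the CDS was 0.234 ± 0.0937, and intronless genes were higher in 3 of 3 libraries in each of the 10 bins. The stretch that gives the background was longer in intronless genes, with a median of 1212 nt of CDS against 172 nt, and its part in the difference was not tested.

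**Figure D5:**
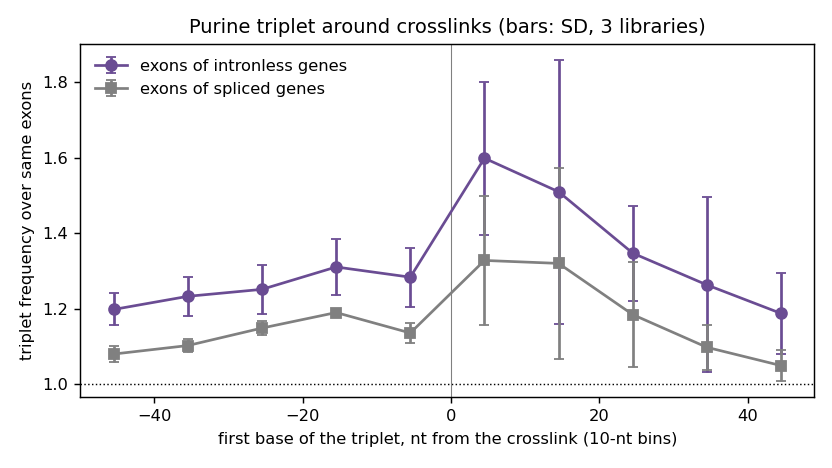
Frequency of GAA by the position of its first base from the crosslink (horizontal axis, 10-nt bins, negative upstream), relative to the same exons, in intronless (purple circles) and spliced genes (grey squares); points are means and bars SD over 3 libraries. The means are highest from 0 to 9 nt downstream, at 1.60 in intronless and 1.33 in spliced genes, with 1.51 and 1.32 from 10 to 19 nt and the widest bars there.

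In the coding sequence, bound intronless genes had a higher median GAA frequency than the other intronless genes. The median GAA frequency in the CDS was 23.1 per kb in the 113 bound genes, 15.1 in the 226 crosslinked but not bound, and 12.04 in the 728 without a crosslink. Among genes without a crosslink that belong to none of the families it was 16.4. Spliced genes had 24.9 per kb when bound and 21.0 in all. The 15 genes with the highest mean CPM ran from 21.7 (Pabpc6) to 51.3 per kb (Hmgb4), and 12 of them were above the median of bound spliced genes. These 15 were selected by their crosslinks and the bound spliced genes were not cut to their highest. With all bound genes in both sets, intronless genes had the lower median. Purines made up 53.4% of the CDS at the median of bound genes and 45.2% in genes without a crosslink, but 51.5% in genes crosslinked and not bound and 50.9% in those without a crosslink that belong to none of the families.

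Retrogenes were set beside their spliced parent or a spliced relative where the annotation has the first as intronless and the other as spliced, which held for 8 of the 20 pairs looked up. In 4 of them the spliced gene had almost no exonic crosslinks. Pgk2 had 36, 5 and 52 crosslinks and Pgk1, its parent on the X chromosome, 0, 0 and 0. Ubl4b, a ubiquitin-like gene, had 15, 4 and 26 and Ubl4a 0, 0 and 2. Gk2 had 12, 0 and 24 and Gk 0, 1 and 0. The parents of these 3 lie on the X chromosome, as do Cstf2 and Rbmx, described next, which had contact. Actl7b had 32, 2 and 74 and the cytoplasmic actin gene Actg1, a spliced relative, 0, 2 and 0.

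The other pairs did not share that pattern. Kif2b had 36, 3 and 108 exonic crosslinks and its autosomal relative Kif2a 42, 7 and 115, or 48.7 ± 47.8 and 46.7 ± 42.3 CPM per kb of CDS (SD, n = 3). Rbmxl2, an hnRNP G family gene of meiosis, had 4.92 ± 2.27 CPM per kb of CDS against 1.67 ± 1.51 for the X-linked Rbmx. The polyadenylation factor gene Cstf2t had 3.08 ± 1.28 against 7.501 ± 4.57 for Cstf2 on the X chromosome, which had 5, 17 and 18 exonic crosslinks, and the ESCRT gene Chmp1b 2.93 ± 2.72 against 6.75 ± 1.98 for Chmp1a. Compared within each library, Rbmxl2 lay above Rbmx in all of them (2.48, 6.97 and 5.30 against 2.07, 0 and 2.95 CPM per kb). This rests on 1, 5 and 3 CDS crosslinks against 1, 0 and 2. For Kif2b, Cstf2t and Chmp1b the direction differed between libraries. Exonic counts were 18 or fewer for the last 3 intronless genes.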

How the data were processed

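The authors processed the iCLIP reads of 3 libraries with the iMAPS pipeline. Their processing notes name Trim Galore 0.6.7, Bowtie 1.3.1, STAR 2.7.9a and UMI-tools 1.1.2, and the mm39 build, with no roles. The deposited values were counts of unique cDNAs per crosslinked nucleotide and strand, not normalised and not pooled. All 49 sequence names fitted GRCm39.

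Column 5 of each file was summed per gene and strand over merged exons (GENCODE M39; CDS before 3′ UTR before 5′ UTR) with Python 3.11.15, numpy 2.4.6 and scipy 1.17.1. CPM used the library total. Tests ran over all autosomal coding genes, and were tested on simulated data. CDS to UTR tests needed 20 crosslinks and 100 nt of UTR, and log2 ratios per gene had 0.5 crosslinks added. Named were the 15 members by CPM, the 10 by CPM per kb, retrogene pairs, called members and 6 windows. The members and lists were chosen with earlier results of these data known. Intervals and limits (3 counts) cover counting error only. Replicates were biological according to the labels, with no further detail, so p-values cover counting within each library.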

Additional observations from a re-analysis of the deposited data

How the results depend on the processing

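Of 107 recomputed values over 10 results, 87 moved by less than the spread between libraries or, for counts, by at most 1.5 times. The log2 density ratio to spliced exons (0.32) turned to -0.67 against internal exons, -0.53 for CDS alone and -0.14 for CDS without chemoreceptors, and moved to 1.23 against last exons and 1.63 for genes with at least 20 crosslinks. It ranged from 0.13 to 0.66 with 1 library left out. Bound genes (113) numbered 85 without bases that overlap another gene on the same strand. They fell to 64 against the intronic density and to 53 with Bonferroni adjustment. With replicates 3, 1 or 2 left out they numbered 118, 127 and 147. The counts with Bonferroni adjustment or with a library left out are given without a share over all autosomal coding genes. The log2 ratio of CDS to 3′ UTR (1.45) was 1.60 in unique 30-mers, 1.38 with X and Y added, 1.57 with 1 exon asked of coding transcripts only, 1.37 without the 5 highest genes, 1.62 with both UTRs of at least 100 nt, 0.61 with each gene's own expectation and 1.32 for genes with at least 20 crosslinks, above 0 in each. Genes called CDS against UTR (2) ranged from 2 to 8, the 8 without replicate 2. The GAA ratio (1.09) was 1.25 within 10 nt, 1.04 within 50 nt and 1.25 for AGAA. The median density of genes with at least 20 crosslinks, taken in each library and then averaged (17.98 CPM per kb), was 51.5 with a minimum of 50 and ranged from 25.9 to 38.9 with 1 library left out, the highest without replicate 2. For this median and for the CDS against UTR calls, the minimum was counted over the libraries kept. Leaving a library out or raising the minimum therefore also left fewer genes above it. The causes of these shifts were not tested. Depth limits genes with few crosslinks, since 3 counts stand for 4.84 to 8.62 CPM. No paired analysis was possible because there was 1 group.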

Other observations

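Intronless genes of the sex chromosomes were kept out of the comparisons. On the X chromosome, 37 of 142 had a crosslink and 7 had one in all 3 libraries, with a pooled density of 0.532, 0.103 and 0.437 CPM per kb in replicates 1, 2 and 3, against 3.95, 1.08 and 5.85 on autosomes. On average 24.8% of their bases lie in 30-mers found once in the genome, against 83.5% on autosomes. The highest was Gm61592 with 17, 6 and 19 crosslinks, followed by the histone gene H2ap with 5, 3 and 13 and Zcchc13, a zinc-finger gene, with 11, 0 and 5. The 8 intronless genes of the Y chromosome had 0 crosslinks, with 2.696% of their bases unique.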
